A study of Mus musculus with 48 samples.

Results

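Fatty acid binding proteins are small proteins of the cell interior that carry long-chain fatty acids, which dissolve poorly in water, between membranes, enzymes and the nucleus. The brain makes mainly 3 of them. Fabp7 (brain lipid binding protein) is known from radial glia and astrocytes and binds polyunsaturated fatty acids such as docosahexaenoic acid. Fabp5 (epidermal fatty acid binding protein) is found in neurons, glia and vessel cells and can carry fatty acids and endocannabinoids. Fabp3 (heart-type fatty acid binding protein) is found mainly in neurons. Fabp7 is also known as a gene whose RNA follows the time of day in many brain regions, and whose promoter has been described as a target of the clock repressor Nr1d1 (REV-ERBα).

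The 3 genes Fabp7, Fabp5 and Fabp3 were chosen by gene family, out of 22180 genes with a row of 1 symbol on the array, and the family was proposed because the daily rhythm of Fabp7 in these data was already known. Fabp7 had 1 row. Fabp5 had 4 rows and Fabp3 had 2, and the row of the highest mean was taken for each. All 3 genes passed the filter on low values, a mean level over all arrays of at least 5.05 (log2), which 17274 genes passed.

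The study followed RNA through the day in male C57BL/6 mice entrained to 12 h of light and 12 h of dark. It sampled 4 tissues linked by dopamine: the midbrain region of the substantia nigra and ventral tegmental area (labelled SN/VTA), where dopamine neurons lie, the prefrontal cortex (PFC) and striatum (STR), which receive their fibres, and the habenula (HAB), which acts on them. Time is given as Zeitgeber time (ZT), in hours from the onset of light. Samples were taken every 4 h for 2 days, so that ZT3, ZT7 and ZT11 fall in the light phase while ZT15, ZT19 and ZT23 fall in the dark phase. This gave 24 groups of tissue and time with 2 arrays each, 12 arrays per tissue and 48 in all, hybridised to Affymetrix Mouse Gene 2.0 ST arrays. No group carried a mutation or a drug. The arrays of a pair, replicates 1 and 2, stand for the first and the second day. Each array held pooled RNA of 3 mice, so arrays vary between pools and not between single mice. Errors and p-values of the fitted 24-h curves also take in departures of the data from the curve. An SD over the 12 arrays of a tissue also includes the time of day. Levels are the deposited log2 values, and the arrays of a pair correlated with r from 0.982 to 0.995 across genes. The tissues were told apart by marker genes: 3 of 3 markers for SN/VTA, STR and HAB, and 2 of 3 for PFC, lay higher on every array of their tissue than on any other array. The exception was Neurod6. In whole tissue, fewer cells of a type and less RNA per cell cannot be told apart.

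Promoter sequence was read for Fabp7 and Fabp3 from the RefSeq table of build GRCm38.p6, as 250 bases before and 50 after the annotated start of the gene. The promoter of Fabp7, at chr10:57784673-57784972 on the plus strand, is shown because this gene carries the rhythm described below. Its capitals mark the 1 match to the core to which REV-ERB and ROR receptors bind, TAGGTCA, which lies on the opposite strand and so reads as TGACCTA.
Fabp7 promoter: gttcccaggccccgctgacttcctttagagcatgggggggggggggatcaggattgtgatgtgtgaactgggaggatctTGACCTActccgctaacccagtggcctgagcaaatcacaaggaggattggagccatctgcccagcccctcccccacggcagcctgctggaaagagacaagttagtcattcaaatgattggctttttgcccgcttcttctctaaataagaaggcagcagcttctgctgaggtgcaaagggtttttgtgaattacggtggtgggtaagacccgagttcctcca
The match lies between positions -171 and -165 relative to the start of the gene. Of 21 core clock symbols, which hold Arntl also under its other name Bmal1, 17 had a promoter in the table. The core was present in 2 of these, Arntl and Nfil3, both with the variant TAGGTCA. A gene counted if any of its promoters matched, whereas the shares given below are per promoter. The 3 matches are set side by side, each on the strand on which it reads TAGGTCA, with the core in capitals. The windows are chr10:57784740-57784770 (minus strand) for Fabp7, chr7:113207529-113207559 (plus strand) for Arntl and chr13:52981033-52981063 (plus strand) for Nfil3.
Fabp7: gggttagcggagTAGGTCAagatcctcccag
Arntl: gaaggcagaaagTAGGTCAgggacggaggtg
Nfil3: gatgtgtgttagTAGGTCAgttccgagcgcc
Both forms of the core, TAGGTCA and TGGGTCA, were searched on both strands. Of 32841 promoters of this length in the table, 2119 (6.45%) held at least 1 of them, 2.61% the first and 3.98% the second. The shorter half-site AGGTCA, which is contained in the first form, was present in 16.3%. The E-box CACGTG was present in 7.15% and the D-box TTANGTAA in 2.32%, and neither was found in the Fabp7 window. The Fabp3 promoter held none of the cores, the E-box or the D-box in its window. A match describes letters in a window, and no binding was measured here.

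Fabp7 RNA was high in the first hours of light and low early in the dark in all 4 tissues. In SN/VTA the pair of arrays at ZT3 gave levels of 10.69 and 10.70, at ZT7 10.79 and 10.75, at ZT11 10.32 and 10.35, at ZT15 10.21 and 10.22, at ZT19 10.33 and 10.31, and at ZT23 10.70 and 10.58. The arrays of ZT23, ZT3 and ZT7 were thus all higher than those of ZT11, ZT15 and ZT19, with no overlap. In PFC the levels were 9.56 and 9.50 at ZT3, 9.34 and 9.40 at ZT7, 8.80 and 8.85 at ZT11, 8.77 and 8.75 at ZT15, 8.78 and 8.83 at ZT19, and 9.28 and 9.35 at ZT23. The same 3 times were again separate from the other 3, and the arrays of a pair differed by at most 0.079.

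In STR the levels of Fabp7 were 10.58 and 10.70 at ZT3, 10.63 and 10.60 at ZT7, 10.18 and 10.05 at ZT11, 9.94 and 10.15 at ZT15, 10.22 and 10.23 at ZT19, and 10.50 and 10.42 at ZT23. In HAB they were 10.67 and 10.66 at ZT3, 10.43 and 10.51 at ZT7, 9.995 and 10.05 at ZT11, 9.62 and 9.90 at ZT15, 10.16 and 10.24 at ZT19, and 10.40 and 10.15 at ZT23. In STR the high and low times did not overlap. In HAB the arrays of ZT23 and ZT19 overlapped, and the pair at ZT15 stood 0.281 apart, the widest gap between replicates of Fabp7. The SD between replicates of a group was 0.040 in SN/VTA, 0.040 in PFC, 0.082 in STR and 0.114 in HAB.

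**Figure D1:**
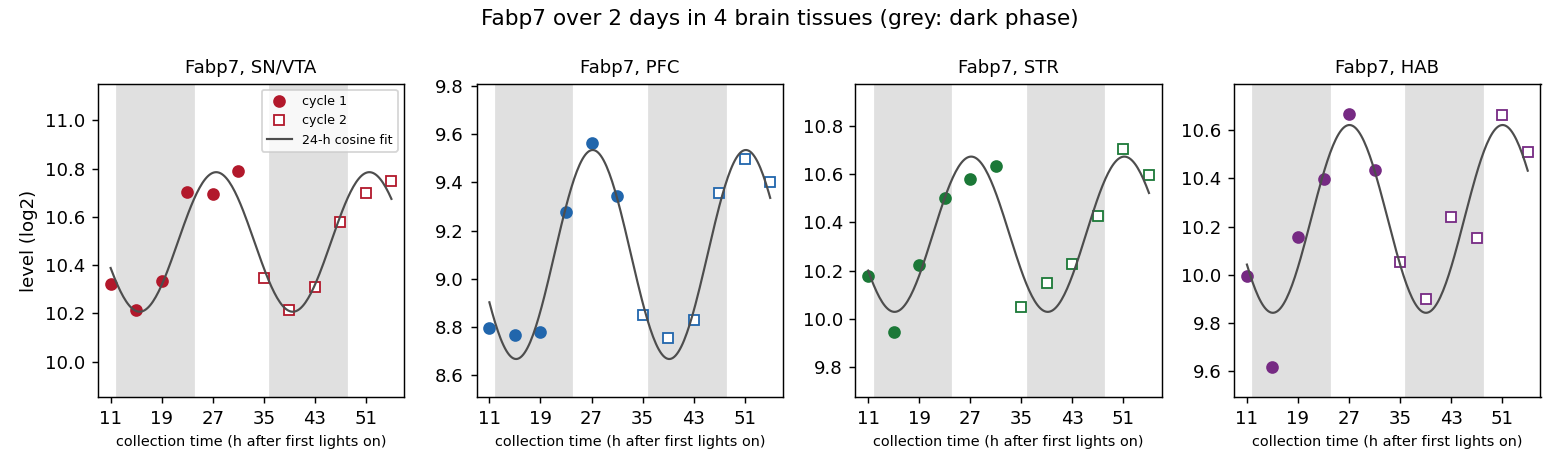
Level of Fabp7 (log2) on each of the 12 arrays of a tissue against the hour of collection after the first lights on. Filled circles are the first cycle and open squares the second, grey bands are the dark phase, the curve is the fitted 24-h cosine, and the level axes start at different values. In every tissue the mean of a pair is lowest at ZT15 and highest at ZT3 or ZT7.

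ZT15 had the lowest mean in all 4 tissues. The highest mean was at ZT7 in SN/VTA and at ZT3 in the other 3. Between these times the ratio of linear levels was 1.47 in SN/VTA, 1.70 in PFC, 1.51 in STR and 1.87 in HAB. The largest step down between neighbouring times was from ZT7 to ZT11 in each tissue, with a log2 change of -0.43 in SN/VTA, -0.55 in PFC, -0.50 in STR and -0.45 in HAB. The ascent from ZT19 to ZT23, within the dark phase, had steps of 0.32 in SN/VTA, 0.51 in PFC, 0.24 in STR and 0.07 in HAB. In HAB the larger rises were from ZT15 to ZT19 (0.44) and from ZT23 to ZT3 (0.39). Fabp7 had thus begun to rise before lights on in all 4 tissues. Its mean at ZT23 was 10.64 in SN/VTA, 9.31 in PFC, 10.46 in STR and 10.27 in HAB. The highest means were 10.77, 9.53, 10.64 and 10.66 in the same order.

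A cosine of 24 h was fitted to each tissue. Its amplitude is the height from the mean to the peak on the log2 scale. Since the rhythm of Fabp7 led to its choice, amplitudes and peak times of the 3 genes are descriptions, given without a test. For Fabp7 the amplitude was 0.29 ± 0.03 (SE, 12 arrays) in SN/VTA with a peak at ZT3.5, 0.43 ± 0.04 in PFC with a peak at ZT3.2, 0.32 ± 0.04 in STR with a peak at ZT3.1, and 0.39 ± 0.06 in HAB with a peak at ZT3.1. From trough to peak of the curve this is 1.49-fold, 1.82-fold, 1.56-fold and 1.71-fold in the same order. The curve took up 90.8% of the variance between arrays in SN/VTA, 95.7% in PFC, 88.2% in STR and 82.0% in HAB. All 12 arrays of SN/VTA, PFC and STR, and 10 of 12 of HAB, lay on the side of the mean where the curve put them. A single curve for all 48 arrays gave 0.36 ± 0.02, peaking at ZT3.2, and 46 of 48 arrays lay on its side. By size of the shared amplitude Fabp7 ranked 7 among the 17274 genes, and within tissues it ranked 57 in SN/VTA, 15 in PFC, 33 in STR and 33 in HAB. The median amplitude of all genes was 0.055 in SN/VTA, 0.078 in PFC, 0.076 in STR and 0.071 in HAB.

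**Figure D2:**
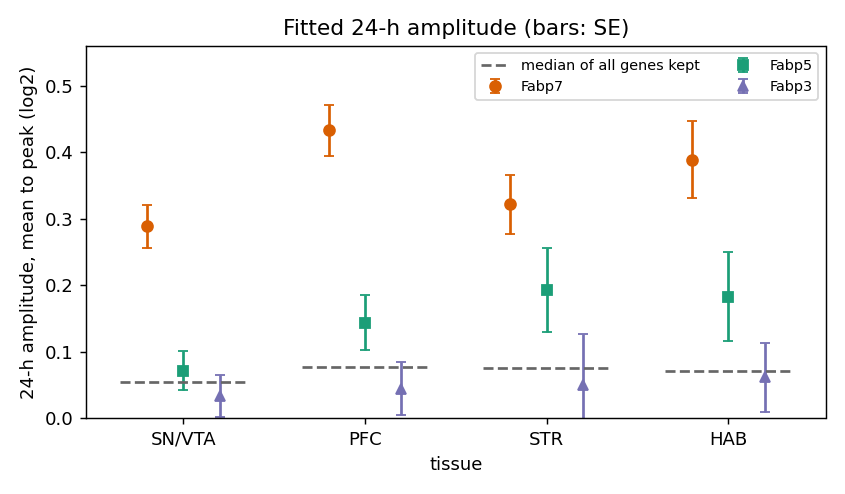
Amplitude of the fitted 24-h curve (log2, mean to peak) of Fabp7, Fabp5 and Fabp3 in each tissue, with bars of 1 SE from 12 arrays. Dashed lines are the median over all genes kept. Fabp7 lies between 0.29 and 0.43 in every tissue, and Fabp3 is near the median of all genes or below it.

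Taken as counts past the threshold (limma, Benjamini-Hochberg adjusted p under 0.05 over all genes), Fabp7 was the 1 of 3 genes called in SN/VTA and in PFC. In these tissues 0.162% and 0.179% of all genes were called. None of the 3 was called in STR or HAB, where 0.0174% of all genes (3 genes each) were called in either tissue. At an unadjusted p under 0.05, limma counted 2 of 3 in STR and 1 of 3 in HAB, against 1467 and 1089 of all 17274 genes. With a prior variance that follows the mean level (a trend), limma called Fabp7 in STR and HAB as well. That prior also raised the count among all 17274 genes, to 31 in STR and 8 in HAB. Over all 48 arrays Fabp7 and Fabp5, 2 of 3, were called for a shared rhythm, as were 5.55% of all genes. Nothing is read from these counts, because rhythm chose the family.

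Whether the rhythm differed between tissues was tested with the terms of tissue by time. This test is built from the same daily curves whose rhythm led to the choice of Fabp7, so it is no independent test. For Fabp7 no difference was detected (limma adjusted p = 0.940), although its amplitudes ranged from 0.29 to 0.43. None of the 3 genes passed this test, against 0.0289% of all genes, and 0 of 3 had an unadjusted p under 0.05 in limma, against 1147 of all 17274.

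The levels of the 2 cycles were then compared, a contrast the choice did not use. The second cycle minus the first gave -0.03 for Fabp7 in SN/VTA, 0.03 in PFC, 0.02 in STR and 0.04 in HAB. None passed the test in limma (adjusted p from 0.867 to 1.00). Fitted to each cycle of 6 arrays alone, the amplitude of Fabp7 was 0.30 and 0.28 in SN/VTA, 0.44 and 0.43 in PFC, 0.33 and 0.31 in STR, and 0.46 and 0.32 in HAB. The peaks of the single cycles lay between ZT2.7 and ZT3.8. These fits split the values whose rhythm led to the choice of Fabp7, so they are descriptions and no independent support. Fabp7 was not called by limma in either cycle alone in any tissue. Across all genes 0% were called between the cycles in SN/VTA, 0.0116% in PFC, 0% in STR and 1.12% in HAB, and at an unadjusted p under 0.05 limma counted 755 genes in SN/VTA and 1222 in STR. In HAB, genes of the choroid plexus, the tissue that secretes cerebrospinal fluid, had a mean level of 8.91 in the first cycle and 7.39 in the second, lower in 7 of 7 genes. The change of Fabp7 between the same arrays was 0.04.

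Fabp7 had its lowest level in PFC. Over the 12 arrays of a tissue, its levels in SN/VTA ran from 10.21 to 10.79 with a median of 10.46 and a mean of 10.50 ± 0.22 (SD, n = 12 arrays, with time of day included). In STR they ran from 9.94 to 10.70 (median 10.33, mean 10.35 ± 0.25), in HAB from 9.62 to 10.67 (median 10.20, mean 10.23 ± 0.32), and in PFC from 8.75 to 9.56 (median 9.06, mean 9.10 ± 0.33). The range of PFC did not touch that of any other tissue, while the ranges of SN/VTA, STR and HAB overlapped. Matched by time, the level in SN/VTA was above that in PFC by 1.40 ± 0.03 (SE), or 2.63-fold (limma adjusted p = 1.11e-24). PFC was also below STR (difference -1.25, limma adjusted p = 2.30e-23) and below HAB (-1.13, 2.88e-22).

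The other 3 tissues lay close together. SN/VTA was above HAB by 0.26 (limma adjusted p = 8.49e-08), and at each of the 6 times both arrays of SN/VTA were above both of HAB. It was above STR by 0.15 (limma adjusted p = 4.00e-04), and STR above HAB by 0.12 (0.00343). The sizes of these gaps depended on the scaling of the arrays. SN/VTA was above STR by 0.05 after quantile normalization (limma adjusted p = 0.182) and by 0.33 with the median of each array subtracted (1.06e-09). It was above HAB by 0.16 (limma adjusted p = 3.11e-04) and 0.40 (2.24e-11) in the same order. With the median of each array subtracted STR was above HAB by 0.07 (0.0713). All 3 genes were called in all 6 comparisons of tissues, where most genes were: 75.1% for SN/VTA against PFC, 75.9% for SN/VTA against STR, 67.7% for SN/VTA against HAB, 73.9% for PFC against STR, 72.4% for PFC against HAB and 70.4% for STR against HAB. A call alone therefore does not set the family apart from other genes. The median of all genes for SN/VTA minus PFC was 0.05 as deposited, 0.17 with array medians subtracted and 0.11 after quantile normalization, against 1.40 for Fabp7.

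**Figure D3:**
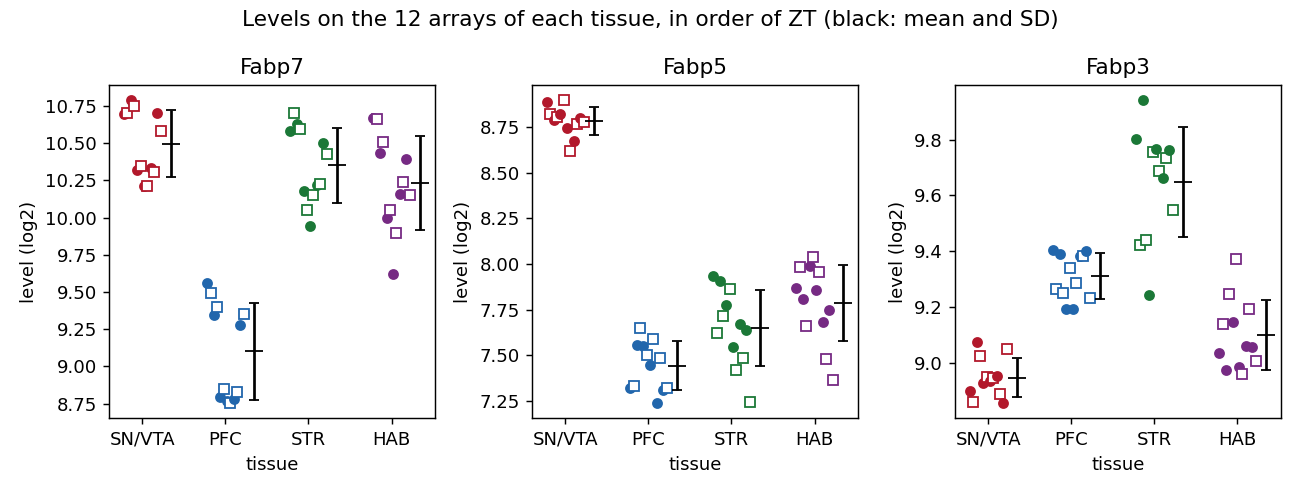
Level (log2) of Fabp7, Fabp5 and Fabp3 on the 12 arrays of each tissue, in order of ZT, with filled circles for the first cycle and open squares for the second. Black marks are the mean and SD over the 12 arrays, and each gene has its own axis. Fabp7 is lowest in PFC, Fabp5 highest in SN/VTA and Fabp3 highest on average in STR.

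Astrocytes are the main cells that make Fabp7 in the adult brain, so 15 astrocyte genes were set beside it. Their mean level was 9.94 in SN/VTA (9.85 to 10.003 over the arrays), 8.997 in PFC (8.90 to 9.07), 9.19 in STR and 9.54 in HAB. They too were mostly higher in SN/VTA than in PFC, 13 of 15 genes with 2 lower (limma). Of all 17274 genes, 7542 were called higher and 5434 lower in this comparison. Aldh1l1, an enzyme of folate metabolism, was higher by 1.27 ± 0.04 and the water channel Aqp4 by 1.14 ± 0.04, while the glutamate transporter Slc1a3 was lower (-0.44 ± 0.05), each with a limma adjusted p under 0.05. The level of Fabp7 minus the mean of the list was 0.55 in SN/VTA, 0.10 in PFC, 1.16 in STR and 0.70 in HAB. Fabp7 and the list were thus both lower in PFC than in SN/VTA, but other pairs of tissues did not run alike. Between PFC and STR the list means lay close together while Fabp7 differed by -1.25, and between SN/VTA and STR the list means lay further apart than the levels of Fabp7, which differed by 0.15. The part of cell numbers in these differences was not tested.

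Over the day the mean of the astrocyte list stayed nearly level, with amplitudes from 0.03 to 0.05. None of its 15 genes was called rhythmic in any single tissue by limma. At an unadjusted p under 0.05 there were 4 in SN/VTA, 4 in PFC, 1 in STR and 3 in HAB. Of all 17274 genes, 1705, 2001, 1467 and 1089 passed this in the same order. For a shared rhythm 3 of the 15 were called, against 5.55% of all genes. They were the gap junction gene Gjb6 (peak ZT16.2, limma adjusted p = 0.00949), the growth factor receptor Fgfr3 (ZT15.8, 0.0165) and the transcription factor Sox9 (ZT0.3, 0.0253). The mean of the list was also subtracted from each array. The amplitude of Fabp7 was then 0.28 in SN/VTA, 0.45 in PFC, 0.33 in STR and 0.40 in HAB. Its peaks then lay from ZT2.8 to ZT3.9. A mean that is nearly level can change these amplitudes little, so nothing is read from the subtraction. Oligodendrocyte genes varied more in HAB, where the curve of the mean of 8 genes peaked at ZT10.2 (amplitude 0.26), and their part in the values of HAB was not tested.

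Fabp5 stood highest in SN/VTA. Its 12 arrays there had a mean of 8.79 ± 0.08 (SD), against 7.79 ± 0.21 in HAB, 7.65 ± 0.21 in STR and 7.44 ± 0.13 in PFC. No array of another tissue reached the range of SN/VTA. The difference was 1.34 against PFC, 1.13 against STR and 1.00 against HAB, each ± 0.05 (SE) and called by limma. PFC was below STR by a difference of -0.21 (limma adjusted p = 4.42e-04) and below HAB by one of -0.34. STR was below HAB by -0.14 (limma adjusted p = 0.0169), a call that ended after quantile normalization (-0.06, 0.306) and when HAB replicate 1 of ZT23 (-0.10), STR replicate 2 of ZT3 (-0.11) or STR replicate 2 of ZT23 (-0.10) was left out. Fabp5 and Fabp7 thus both had their lowest mean in PFC and their highest in SN/VTA, but only Fabp5 had all its arrays of SN/VTA above those of the other 3 tissues.

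The daily curve of Fabp5 was smaller and later than that of Fabp7. In STR, where its amplitude was largest, levels were 7.93 and 7.62 at ZT3, 7.91 and 7.71 at ZT7, 7.78 and 7.86 at ZT11, 7.54 and 7.42 at ZT15, 7.67 and 7.48 at ZT19, and 7.64 and 7.24 at ZT23. The light times were higher on average, but the arrays of ZT3 and ZT19 overlapped. In HAB the highest pair was at ZT11, 7.99 and 8.04, and the lowest mean at ZT23, 7.75 and 7.36. In PFC the highest pair was at ZT7, 7.55 and 7.65, and the pairs at ZT3, 7.32 and 7.33, and ZT23, 7.31 and 7.32, were low. At ZT3, then, Fabp7 was at its highest in PFC while Fabp5 was near its lowest. In SN/VTA the pairs of Fabp5 at ZT11, 8.82 and 8.90, and at ZT15, 8.75 and 8.62, were the highest and the lowest by mean.

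The fitted amplitudes of Fabp5 were 0.07 ± 0.03 (SE) in SN/VTA with a peak at ZT5.4, 0.14 ± 0.04 in PFC at ZT10.6, 0.19 ± 0.06 in STR at ZT7.5 and 0.18 ± 0.07 in HAB at ZT9.9. Over all 48 arrays its curve peaked at ZT8.8 with an amplitude of 0.13 ± 0.03, a 1.201-fold span that took up 34.3% of the variance within tissues, and 37 of 48 arrays lay on its side. No difference of the rhythm between tissues was detected (limma adjusted p = 0.906). In STR the second cycle of Fabp5 lay below the first by a difference of -0.19 ± 0.06, with an unadjusted p of 0.00542 in limma and an adjusted p of 0.505, so it did not pass the test.

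The other rows of Fabp5 did not all follow the one used, whose mean was 7.92. After subtracting tissue means, a row with a mean of 7.87 correlated with it at r = 0.98 over the 48 arrays, a row at 7.39 with r = 0.50 and a row at 5.41 with r = 0.19. The shared amplitude was 0.07 on the third row and 0.05 on the lowest, and neither was called. On the third row PFC was above STR (0.46, limma adjusted p = 2.23e-09) and above HAB (0.36, 2.39e-07), the reverse of the row used. On the lowest row STR was above HAB (0.45, limma adjusted p = 0.00108), again the reverse. The higher level of Fabp5 in SN/VTA was called on all 4 rows, but its size differed between them. SN/VTA minus PFC was 1.34 on the row used and 1.37 on the second. It was 0.13 on the third (limma adjusted p = 0.0182) and 1.90 on the lowest.

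Fabp3 was highest in STR. Its levels there had a mean of 9.65 ± 0.20 (SD, 12 arrays), against 9.31 ± 0.08 in PFC, 9.10 ± 0.13 in HAB and 8.95 ± 0.07 in SN/VTA. SN/VTA was below STR by a difference of -0.70 (limma adjusted p = 4.98e-12) and below PFC by -0.36 (1.67e-06), and its range overlapped with neither. STR was above HAB by 0.55 and above PFC (difference PFC minus STR -0.34), and PFC was above HAB by 0.21 (limma adjusted p = 0.00172). The SE of each of these was 0.06. The smallest gap, SN/VTA minus HAB at -0.15 (limma adjusted p = 0.0217), was -0.25 after quantile normalization (4.20e-04) and was no longer called with array medians subtracted (-0.01, 0.847) or when 1 of 2 HAB arrays was left out, replicate 2 at ZT7 (-0.13, 0.0556) or replicate 2 at ZT11 (-0.13, 0.0513). The order of tissues in Fabp3 was thus unlike that of Fabp7 and Fabp5, with SN/VTA at the bottom.

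Fabp3 varied little with the time of day. Amplitudes were 0.03 in SN/VTA, 0.04 in PFC, 0.05 in STR and 0.06 in HAB, and over all arrays 0.006 ± 0.027 (SE), with 26 of 48 arrays on the side of the curve. In STR the pair at ZT11 was 9.24 and 9.75 and the pair at ZT7 was 9.94 and 9.44, so that replicates of 1 time stood up to 0.513 apart in a tissue whose arrays ran from 9.24 to 9.94. No difference of rhythm between tissues was detected (limma adjusted p = 0.994). The second row of Fabp3, with a mean of 6.13, correlated with the first at r = 0.23 and read otherwise: its shared amplitude was 0.11 with a peak at ZT2.8, which passed the threshold in limma. On that row the differences of level were 0.05 for SN/VTA minus PFC (limma adjusted p = 0.409), -0.05 for SN/VTA minus STR (0.422) and 0.13 for SN/VTA minus HAB (0.0319). STR was above HAB on that row too (0.18, limma adjusted p = 0.00416), and its mean there was again the highest of the 4 tissues (6.21), while SN/VTA was not the lowest. PFC did not differ detectably from STR (-0.10, 0.102) or HAB (0.08, 0.173).

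**Figure D4:**
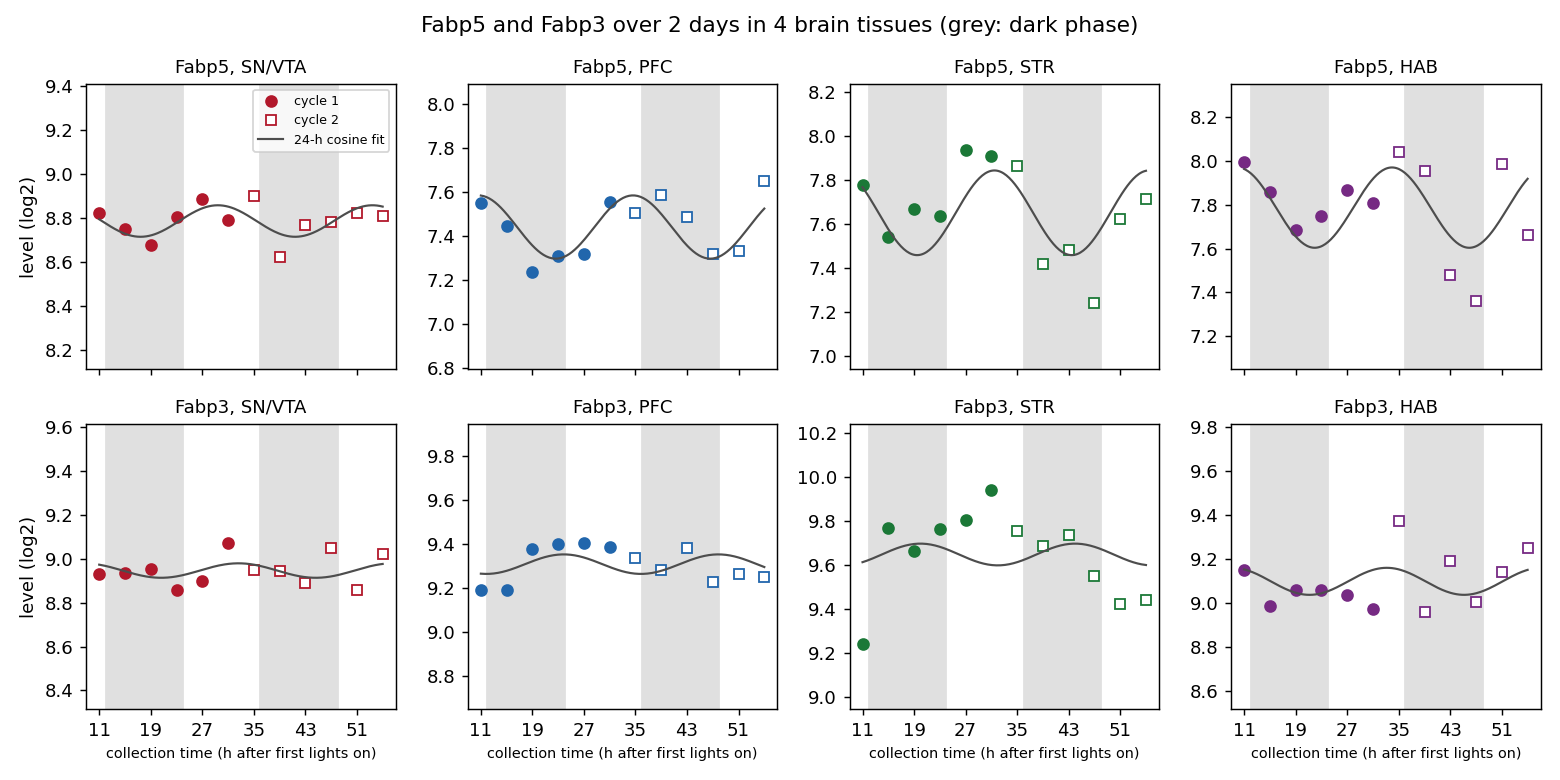
Levels (log2) of Fabp5 (upper row) and Fabp3 (lower row) on each array against the hour of collection after the first lights on. Filled circles are the first cycle, open squares the second, grey bands the dark phase and curves the fitted 24-h cosine. Fabp5 is low at ZT19 or ZT23 in PFC, STR and HAB, and Fabp3 has no common course in the 4 tissues.

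To place the daily course of each gene among the rest, the genes with the highest Pearson r over the 48 arrays, after subtracting the mean of each tissue, were listed. These arrays share pools and collection times with the genes compared, so r is a description. For Fabp7 the first was Lpcat3 (r = 0.79), an enzyme that puts polyunsaturated fatty acids into phospholipids. It was followed by the transcription cofactor Lbh (0.69), the transcription factor Npas3 (0.69), the cytokine receptor subunit Csf2ra (0.69) and Cand2 (0.67). The shared curve of Lpcat3 peaked at ZT3.6 (amplitude 0.13), and the other 4 peaked from ZT1.8 to ZT4.3. None of the 4 with a promoter in the table held either form of the REV-ERB and ROR core. For Fabp5 the closest were Shisa4 (r = 0.71), Erlec1 (0.66), Cyp2j6 (0.66), Dctn6 (0.65) and Vdac3 (0.64), with peaks from ZT7.3 to ZT9.7. For Fabp3 the highest were Lrrc31 (r = 0.57), Gdf2 (0.54) and ND6 (0.54).

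The relatives and partners of the family were read from lists. Of 12 other fatty acid binding proteins and related carriers, 11 had a row. Fabp1, Fabp2, Fabp4, Fabp6, Fabp9, Fabp12 and Pmp2, the binding protein of peripheral myelin, had means between 3.41 and 4.98 and did not pass the filter. Of the 4 that did, the retinoic acid carrier Crabp2 was called for a shared rhythm (amplitude 0.15 ± 0.04, peak ZT6.4, limma adjusted p = 0.0458). The retinol carrier Rbp2 was not (0.10, limma adjusted p = 0.184). Of all genes, 5.55% were called for a shared rhythm.

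Fatty acid uptake and activation was represented by 11 measured genes, of which 1 was called for a shared rhythm, against 5.55% of all genes. Mfsd2a, the transporter of lysophospholipid-bound docosahexaenoic acid at the blood-brain barrier, had a shared amplitude of 0.17 ± 0.03 and a peak at ZT16.4 (limma adjusted p = 1.72e-04), in the dark and far from the peak of Fabp7. The transport protein Slc27a1 had an amplitude of 0.09 and a peak at ZT8.0 (adjusted p = 0.0505). By level, SN/VTA exceeded PFC in 8 of the 11 and lay below it in 2 (limma). The list of nuclear receptors that bind fatty acids, with their targets, had 15 measured genes and none called. At an unadjusted p under 0.05 limma counted 3, against 3305 of all 17274 genes. The lowest limma adjusted p was that of Pparg (0.0690), at an amplitude of 0.10. Compared with PFC, SN/VTA had higher levels of 12 of these 15 and a lower level of 1. Beside both lists, 7542 of all 17274 genes were called higher in SN/VTA than in PFC and 5434 lower. Among 10 genes of endocannabinoid metabolism and receptors, the lipase Abhd6 was called (amplitude 0.07, peak ZT17.9, limma adjusted p = 0.0216). In single tissues limma called 0 genes of these 4 lipid lists, where at most 0.179% of all genes were called. At an unadjusted p under 0.05 it counted between 0 and 5 per list, with the 5 among the 10 endocannabinoid genes in PFC. Of all 17274 genes, 1705 passed this in SN/VTA, 2001 in PFC, 1467 in STR and 1089 in HAB. The median shared amplitude of the lipid lists lay between 0.05 and 0.07, against 0.04 for all genes.

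The core clock, in which Arntl and Clock drive the Per, Cry and Nr1d genes that repress them, gave a time scale for Fabp7. Of 18 measured clock genes 14 were called for a shared rhythm, 5 peaking by day and 9 by night. Of all genes 5.55% were called, 486 peaking by day and 472 by night. Nr1d1, the repressor REV-ERBα, had an amplitude of 0.45 ± 0.03 and a peak at ZT8.7, the Per and Cry repressor Ciart one of 0.64 ± 0.04 at ZT11.0, Dbp one of 0.50 ± 0.03 at ZT11.6 and Per3 one of 0.29 ± 0.02 at ZT13.4 (the highest limma adjusted p of these 4 was 1.98e-13). Arntl peaked at ZT23.5 and Nfil3 at ZT24.0. The peak of Fabp7, at ZT3.2, came after those of Arntl and Nfil3 and before that of Nr1d1. Within tissues, Nr1d1 peaked later than Fabp7 by 4.8 h in SN/VTA, 6.8 h in PFC, 5.1 h in STR and 4.5 h in HAB. The rhythm of Nr1d1 differed between tissues (limma adjusted p = 0.00606), so its shared curve averages unlike curves. On the shared curves the peak of Fabp5 at ZT8.8 lay beside that of Nr1d1. Within tissues it came at ZT5.4 against ZT8.3 for Nr1d1 in SN/VTA and at ZT10.6 against ZT10.0 in PFC. In STR it came at ZT7.5 against ZT8.2, and in HAB at ZT9.9 against ZT7.5.

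**Figure D5:**
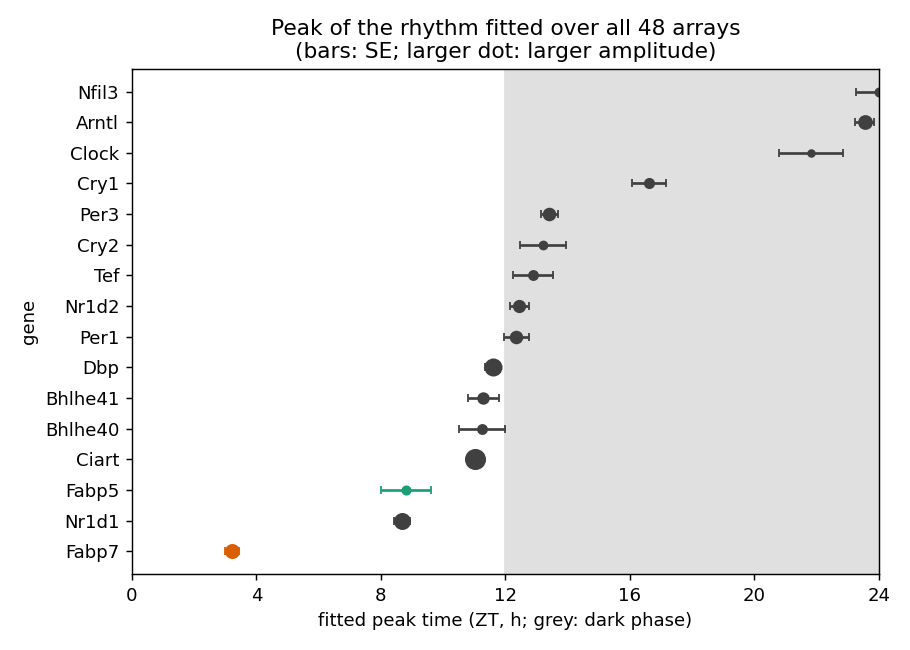
Peak time (ZT, h, with bars of 1 SE) of the curve fitted over all 48 arrays for Fabp7, Fabp5 and the core clock genes called for a shared rhythm, with larger dots for larger amplitudes and the dark phase in grey. Fabp7 at ZT3.2 lies between Nfil3 at ZT24.0 and Nr1d1 at ZT8.7, with no called clock gene between these. The rhythm of Nr1d1 differed between tissues (limma adjusted p = 0.00606).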

How the data were processed

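The deposited table held log2 levels of the authors, taken as such from their range of 1.09 to 13.65, for 41345 rows on 48 arrays. How these were background-corrected, summarised and normalized is not given in the sources read. Per the labels, RNA of 3 mice was pooled for each array. All 48 columns were used. The platform annotation gave 1 symbol for 23521 rows and several for 1814, and 16010 rows were unnamed. The row of highest mean was taken per gene, and 17274 of 22180 genes reached a mean of 5.05, the 30th percentile over rows.

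Models were fitted to all these genes with limma 3.58.1 (lmFit, eBayes) in R 4.3.3, after the procedure was tested on simulated data, and p-values were adjusted by Benjamini-Hochberg with a threshold of 0.05. Rhythms were joint F tests of the cosine and sine of 24 h, with 9 residual degrees of freedom in a tissue. Tissue levels and cycles were contrasts in a model of 24 groups, which shares 1 estimate of the spread. Figures were drawn with Python 3.11.15 and matplotlib 3.10.9. Named genes were the 3 binding proteins, at most 4 genes of each list by the smallest p for the shared rhythm, tissue markers, and the 5 highest correlations with each binding protein, passing over predicted genes, small RNAs and receptor families of smell and immunity. Aldh1l1, Aqp4, Slc1a3, Arntl and Nfil3 were named outside this rule, after their values were seen. The genes and lists were chosen with earlier results of these data known. Replicate numbers marked the cycle and were not used to pair arrays. The deviations of arrays from their groups gave an average correlation of 0.0357 in 60 pairings within a tissue. It was 0.0357 in 36 pairings across tissues at 1 time, and 0.0054 in 180 pairings that differed in both. Whether tissues of 1 time came from the same mice cannot be told from these values. Scaling, filter, prior, replicate block, single cycles, other rows and each array left out were tried as alternatives.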

Additional observations from a re-analysis of the deposited data

How the results depend on the processing

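Over the alternatives run, the amplitude of Fabp7 ranged from 0.274 to 0.309 in SN/VTA, 0.423 to 0.455 in PFC, 0.303 to 0.348 in STR and 0.319 to 0.464 in HAB. These ranges describe the values that led to the choice of Fabp7 and are no independent support for its rhythm. Fitted to a single cycle of 6 arrays, no gene was called in any tissue. With the replicate block the amplitude of Fabp7 in PFC was 0.43, no call of the 3 genes changed, and the count of all genes called was 18 in SN/VTA and 20 in PFC, against 28 and 31. The number marks the cycle.

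With quantile normalization the log2 difference of Fabp7 for SN/VTA minus STR was 0.054 and that of Fabp5 for STR minus HAB -0.062. With array medians subtracted, Fabp7 for STR minus HAB was 0.073 and Fabp3 for SN/VTA minus HAB -0.013. None of these 4 passed the threshold, whereas they did as deposited, and the cause was not tested. On other rows of Fabp5 the difference for STR minus HAB was -0.088 (row 2) and -0.100 (row 3), neither called, and 0.447 (row 4), reversed. On row 3 it was 0.359 for PFC minus HAB and 0.459 for PFC minus STR, both reversed. On row 2 of Fabp3 it was 0.080 for PFC minus HAB, -0.096 for PFC minus STR and -0.047 for SN/VTA minus STR, none called, and 0.129 for SN/VTA minus HAB and 0.049 for SN/VTA minus PFC, both reversed, while the amplitude in PFC was 0.192. Leaving out 1 array at a time gave -0.175 to -0.129 for Fabp3, SN/VTA minus HAB, and -0.169 to -0.103 for Fabp5, STR minus HAB. The second was not called without HAB ZT23 replicate 1, STR ZT3 replicate 2 or STR ZT23 replicate 2.

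Counts of all genes called depended on the prior: with a trend they were 149 in SN/VTA, 229 in PFC, 31 in STR and 8 in HAB. Without the filter they were 12 in SN/VTA and 20 in PFC, with array medians subtracted 13 in SN/VTA, and with 1 array left out 8 to 21 in SN/VTA, 13 to 26 in PFC, 1 to 3 in STR and 0 to 5 in HAB. For the difference of rhythm, 5 genes became 9 with a trend and 3 to 7 with 1 array left out. Between the cycles, leaving out 1 array gave 115 to 421 in HAB (193 with all), 1 to 3 in PFC (2) and 0 to 3 in STR (0). The number of arrays limits the precision, and no detection call was used.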

Other observations

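Endothelial genes, which line the vessels, were a list of 7 measured genes with 4 called for a shared rhythm by limma, all with a peak in the dark, and the list is given only as values beside the family. The tight junction gene Cldn5 peaked at ZT22.8 (amplitude 0.21 ± 0.03 SE, limma adjusted p = 1.54e-04) and the glucose transporter Slc2a1 at ZT12.5 (0.15 ± 0.03, 2.36e-04), so neither peaked near Fabp7. Among oligodendrocyte genes 3 of 8 were called, with peaks in the light: Opalin at ZT5.5 (0.32 ± 0.06, limma adjusted p = 0.00180), Mag at ZT7.8 (0.20 ± 0.04, 0.00197) and Mog at ZT8.8 (0.15 ± 0.04, 0.0235). None of 8 microglial and none of 8 neuronal genes was called by limma. At an unadjusted p under 0.05 there were 2 of each list, against 3305 of all 17274 genes.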
